A study of Mus musculus with 3 samples.

Results

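The 34 genes described here encode the enzymes and carriers of mitochondrial and peroxisomal fatty acid oxidation in the mouse. They were picked by gene symbol from a list of the pathway, a rule that uses no measured value although earlier results of these data were known, out of 42258 genes in each of the 3 deposited expression tables. All 34 symbols were found. Gastrocnemius and plantaris muscle of male mice was analysed by RNA sequencing, with the total RNA of each group pooled into 1 library. The young library held RNA of 3 mice aged 24 weeks. Its strain is labelled C57BL/7J, and the diet of these mice is not given. The aged control library held RNA of 6 C57BL/6J mice aged 87 weeks that had received an EPA-deprived diet for 12 weeks from an age of 75 weeks. EPA is eicosapentaenoic acid, a polyunsaturated fatty acid of fish oil. The aged EPA library held RNA of 6 C57BL/6J mice of the same age whose diet had contained 1 wt% EPA for these 12 weeks. Age, the strain label and possibly the diet differ together between the young and the aged libraries and cannot be told apart. Because each group is 1 library, no test between groups was possible, no error between mice can be given, and all differences below describe these 3 libraries.

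Long-chain fatty acids cross the mitochondrial membranes as carnitine esters, and the first step of this shuttle is blocked by malonyl-CoA. In the matrix each round of beta-oxidation dehydrogenates, hydrates, oxidises and cleaves the acyl-CoA, and the electrons of the first step pass through the electron transfer flavoprotein to ubiquinone. Peroxisomes shorten very long and branched chains with their own set of enzymes. Skeletal muscle burns fatty acids at rest and in sustained work, and oxidative fibres are rich in these enzymes.

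Some of these genes share sequence or a promoter region with a neighbour, which matters for how reads were assigned. Hadha and Hadhb, which encode the subunits of the mitochondrial trifunctional protein, lie head to head on chromosome 5, with 85 bases between their annotated starts (build GRCm38). Hadha runs from 30118304 to 30155162 on the minus strand and Hadhb from 30155248 to 30184593 on the plus strand. The stretch between them, chr5:30155163-30155247 on the plus strand (RefSeq, GRCm38.p6), is shown because it is all the sequence that separates this pair of genes.
Hadha-Hadhb: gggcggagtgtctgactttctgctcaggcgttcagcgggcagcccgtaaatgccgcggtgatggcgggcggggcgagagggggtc
Hadhb also has a processed pseudogene on another chromosome, Gm13910, that matches its whole coding part of 1428 bases at 99.8% identity and differs from it at 3 bases. The longest stretch without a difference was 685 bases. Scp2, which encodes sterol carrier protein and a peroxisomal thiolase, has the transcribed pseudogene Scp2-ps2, identical at 99.6% of 1371 aligned bases. The peroxisomal thiolases Acaa1a and Acaa1b match at 96.6% of 1428 bases, and Acad10 and Acad12, neighbours on chromosome 5, at 95.3% of 1614 bases. The next lines set 41 coding bases of 3 genes beside their near copies, from GENCODE M21 transcripts, because each window holds bases that tell the pair apart. Capitals mark every base that differs within the window, and further differences lie outside it.
Hadhb, coding bases 181 to 221: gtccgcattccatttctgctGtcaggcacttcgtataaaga
Gm13910: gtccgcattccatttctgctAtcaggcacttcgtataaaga
Scp2, coding bases 1384 to 1424: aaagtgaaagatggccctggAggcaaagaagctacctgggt
Scp2-ps2: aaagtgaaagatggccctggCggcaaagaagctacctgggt
Acaa1a, coding bases 267 to 307: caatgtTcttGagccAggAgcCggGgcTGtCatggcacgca
Acaa1b: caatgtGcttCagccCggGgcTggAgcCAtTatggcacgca

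Regulators of this pathway of the nuclear receptor family bind repeats of AGGTCA, so the promoter windows of the genes were searched for them. RefSeq entries (GRCm38.p6, 250 bases before to 50 after the start) were found for 28 of the 34 genes. Only the 250 bases before the start were searched, for these genes and for all genes. A direct repeat of AGGTCA with any 1 base between its copies, searched on both strands with up to 2 mismatches, was found for 2 of the 28 genes (7.14%), Echs1 and Etfa, against 3.72% of all 27025 genes with an entry. The extended single site TCAAGGTCA, which shares the letters AGGTCA with the repeat, was found without a mismatch for 0 of the 28 genes and for 0.42% of all genes. The matched stretches are shown with the match in capitals, at chr7:140116480-140116516 and chr9:55512296-55512332, both on the minus strand. The Etfa match reads on the opposite strand to the gene.
Echs1: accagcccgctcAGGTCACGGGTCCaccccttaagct
Etfa: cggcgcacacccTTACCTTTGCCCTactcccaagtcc
The Echs1 match lay 83 to 71 bases before the start and the Etfa match 77 to 65 bases before it.

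The 3 libraries held 57386394 (young), 57622886 (aged control) and 55969822 (aged EPA) counts, recovered from the deposited values. Etfb in aged control, for example, had 5751 counts. Levels are given in the deposited CPM, counts scaled by divisors that differ from gene to gene, of which 2 of 5 lie near no library's total, so the deposited values sum to 1009954, 1011788 and 988188. Of the 34 genes, 33 averaged 1 CPM or more across the libraries and were compared, as were 12966 genes in all. Acaa1b did not pass. A change below is the difference of log2(CPM + 1) unless called a count ratio. The count ratio, also on the log2 scale, divides recovered counts by each library's own total, and its exact 95% Clopper-Pearson interval covers counting error only. Muscle fibre genes were present in every library, with Acta1, skeletal actin, at 31001 CPM in young, 36148 in aged control and 35589 in aged EPA. Values given as 3 in a row follow this order throughout.

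Levels between genes were compared per kilobase of the longest transcript that GENCODE tags as basic, and no other length was tried. In the young library the highest were Ech1 at 153, Acadm at 143, Etfb at 129, Acadl at 123 and Cpt1b at 121 CPM per kilobase. In aged control Acadm led at 135, followed by Ech1 and Cpt1b, both at 121, and in aged EPA Ech1 led again at 135, followed by Acadm at 129 and Cpt1b at 125. Acadl moved from 123 to 106 and 101 CPM per kilobase. Cpt1b, the muscle form of carnitine palmitoyltransferase, stood far above Cpt1a, the liver form, at 5.51, 5.38 and 4.75 CPM per kilobase. Hadha and Hadhb stood side by side per kilobase in each library, at 93.9 and 93.7 in young, 88.0 and 90.2 in aged control, and 90.1 and 95.8 in aged EPA. These levels leave out the Hadhb pseudogene Gm13910, which held a further 75.9, 70.3 and 70.8 CPM. The match therefore rests on how reads were assigned, and also on the lengths used, 4017 bases for Hadha and 2048 for Hadhb. The lowest compared gene was Acad10 at 1.40, 1.18 and 1.32 CPM per kilobase, below Ehhadh at 2.82, 1.91 and 1.93. Without replicate libraries the order of close neighbours cannot be judged.

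**Figure D1:**
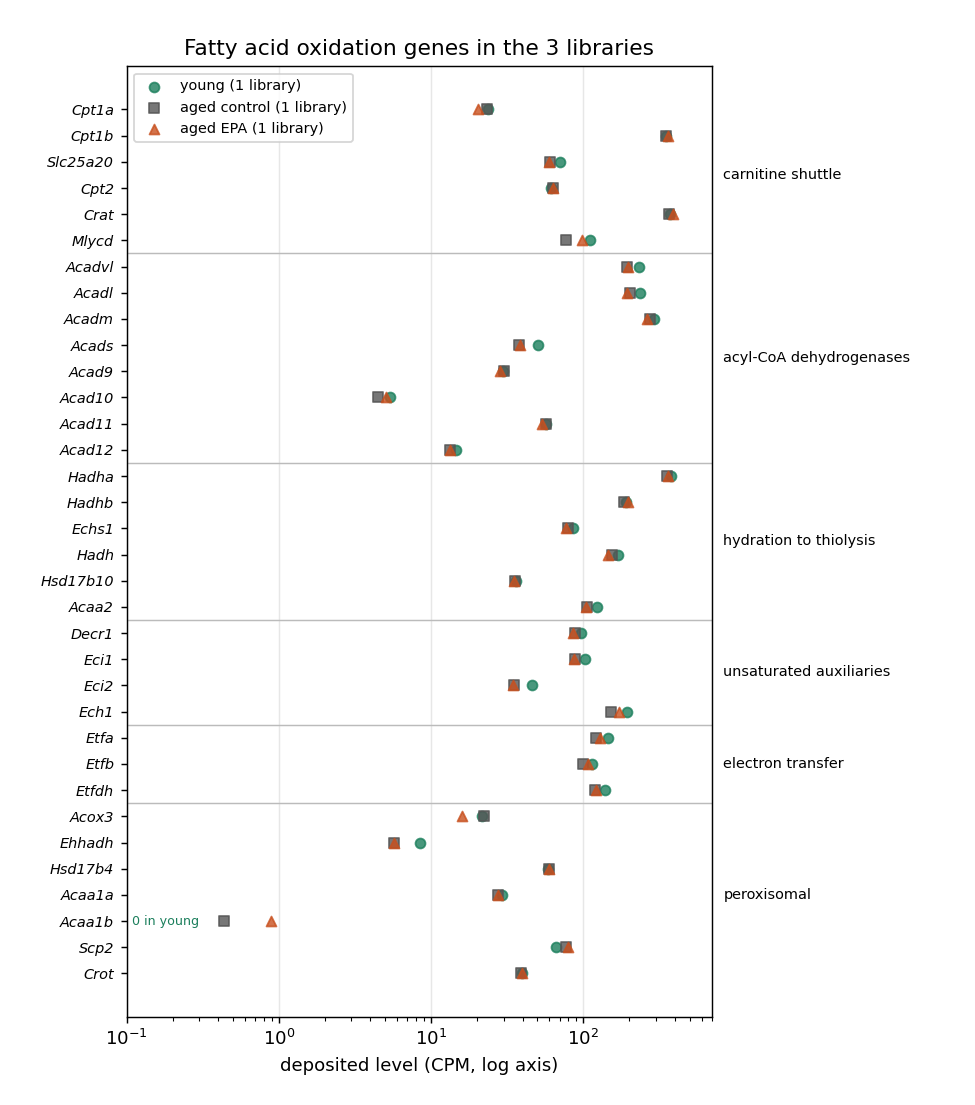
Deposited level of each of the 34 genes in the 3 libraries (CPM on a log axis, 1 point per library, no error bars because each group is 1 library). The 3 points of most genes nearly coincide. The young point lies to the right of aged control for 26 of the 33 compared genes, by at least 1.2-fold for Mlycd, Ehhadh, Acads, Eci2 and Ech1. Acox3 has its aged EPA point to the left of the others, and Acaa1b is absent from the young library.

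Setting aged control against young shows how the pathway stood in muscle of old mice relative to young adults. In aged control 26 of the 33 genes were lower than in young and 7 were higher, whereas 52.4% of all genes compared were lower and 47.5% higher. Among the 5050 genes that averaged 20 CPM or more, 49.3% were lower. The median change of the pathway genes was -0.13 on the log2 scale, against -0.01 for all genes compared. Their summed level was 3605 CPM in aged control and 3955 CPM in young, a difference of -8.84%. In these bulk samples fewer cells of a type and less RNA per cell cannot be told apart. The changes were small: 5 genes (Mlycd, Ehhadh, Acads, Eci2 and Ech1) were at least 1.2-fold lower, against 14.6% of all genes compared, so their share of 33 was close to that background. None of the 33 was at least 1.2-fold higher (12.6% of all genes compared), and none was 2-fold apart in either direction (0.841% lower and 0.895% higher). The excess lay in how many genes were slightly lower, not in large changes.

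**Figure D2:**
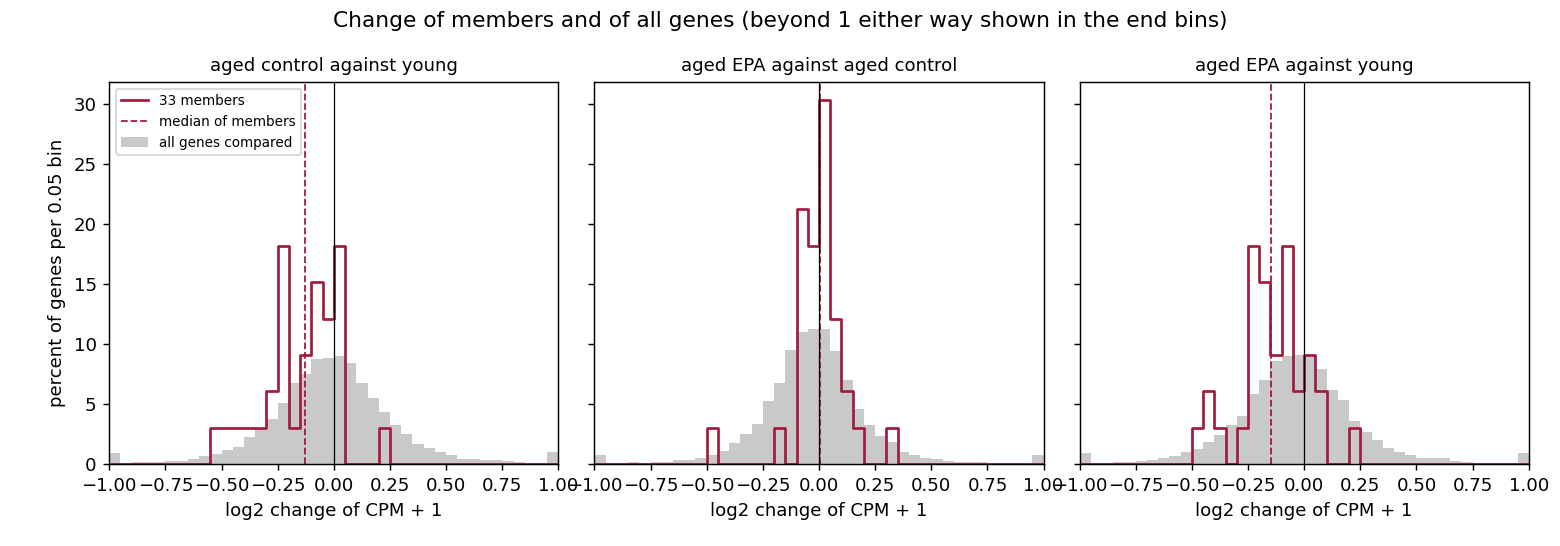
Change of log2(CPM + 1) for the 33 compared genes (red outline) and for all 12966 genes compared (grey), as the percent of genes in each bin, for the 3 comparisons. The pathway genes sit left of 0 in both comparisons with young (dashed medians at -0.13 and -0.15) and around 0 for aged EPA against aged control.

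Taking the young library as the reference for both aged ones, 24 of the 33 genes (72.7%) were lower in both aged libraries than in young, against 41.4% of all genes compared and 39.7% of those averaging 20 CPM or more. Only 4 (Cpt1b, Cpt2, Hsd17b4 and Scp2) were above young in both, against 32.2% of all genes compared. For Cpt1b and Cpt2 the side on which aged control lay depended on the scaling, and Crot, Etfb and Hsd17b10, which belong to the 24, changed side in aged EPA against young under at least 1 alternative. The remaining 5 (Crat, Acad9, Acad11, Hadhb and Acox3) had young between the aged libraries. Both comparisons with young use the same young library, so a value particular to that library enters both.

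In the carnitine shuttle the sharpest difference was in Mlycd, malonyl-CoA decarboxylase, which removes the inhibitor of the shuttle's first step. Mlycd (chromosome 8, 119394878 to 119411102) stood at 112, 76.6 and 97.8 CPM. The aged control library was the lowest and young the highest. Its count ratio was -0.58 (95% counting interval -0.64 to -0.53) for aged control against young. Slc25a20, the carnitine-acylcarnitine translocase of the inner membrane, stood at 70.6, 60.5 and 59.8 CPM, with both aged libraries below young by about the same amount. The other shuttle genes hardly differed between aged control and young. Cpt1b stood at 349.6, 349.7 and 363 CPM, and its aged control against young count ratio was -0.04 (-0.07 to -0.01). Cpt2, which rebuilds the acyl-CoA inside the mitochondrion, stood at 61.6, 63.3 and 62.9 CPM, and Crat, carnitine acetyltransferase, at 374, 364 and 387 CPM. Cpt1a stood at 23.8, 23.2 and 20.5 CPM, lowest in aged EPA. The median change of the 6 shuttle genes was -0.04 in aged control against young.

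Among the 8 acyl-CoA dehydrogenases, which carry out the first step of each round, 6 were lower in aged control than in young, with a median change of -0.17. The short-chain enzyme Acads (chromosome 5, 115110299 to 115119346) stood at 50.1, 37.6 and 38.6 CPM, with a count ratio of -0.46 (-0.54 to -0.37) for aged control against young. Both aged libraries lay well below young, close to each other. The very long-chain enzyme Acadvl stood at 232, 195 and 197 CPM and the long-chain enzyme Acadl at 235, 203 and 194 CPM. For both, the aged libraries again lay together below young. Their count ratios were -0.23 (-0.27 to -0.20) and -0.26 (-0.29 to -0.22). The medium-chain enzyme Acadm differed less, at 292, 275 and 265 CPM. Acad9, which also helps to assemble respiratory complex I, stood at 29.8, 30.3 and 28.4 CPM, and Acad11 at 56.5, 57.2 and 53.6 CPM. These 2 were the dehydrogenases that were not lower in aged control. Acad10 at 5.37, 4.51 and 5.04 CPM and Acad12 at 14.7, 13.3 and 13.3 CPM were lower, but their counting intervals (-0.49 to 0.00 and -0.28 to 0.01) reached 0. In aged EPA all 8 dehydrogenases were below young, with a median change of -0.14, but the counting intervals of Acad9 (-0.14 to 0.06), Acad10 (-0.25 to 0.22), Acad11 (-0.12 to 0.03) and Acad12 (-0.20 to 0.09) held 0.

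The 6 matrix enzymes from hydration to thiolysis were all lower in aged control than in young, with a median change of -0.10, although Hsd17b10 turned higher when the trend of change with transcript length was removed. Acaa2, the thiolase that cleaves medium-length chains, stood at 124, 105 and 105 CPM, with a count ratio of -0.28 (-0.33 to -0.23). The hydroxyacyl-CoA dehydrogenase Hadh stood at 170.3, 154 and 146 CPM, with a count ratio of -0.18 (-0.22 to -0.14). For both genes the aged libraries lay below young. The differences of the rest were smaller. Hadha stood at 377, 353 and 362 CPM and Hadhb at 192, 185 and 196 CPM, so that Hadha was highest in young and Hadhb in aged EPA, though Hadhb was level between these libraries once its near copy was added. The short-chain hydratase Echs1 stood at 85.3, 79.6 and 76.8 CPM. Hsd17b10, a dehydrogenase that also belongs to mitochondrial RNase P, stood at 36.1, 35.6 and 35.2 CPM, nearly level.

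The auxiliary enzymes that handle double bonds of unsaturated chains had the lowest median of the 6 roles, at -0.28, and all 4 were lower in aged control. Eci2, an enoyl-CoA isomerase, stood at 46.2, 35.0 and 34.6 CPM, with a count ratio of -0.38 (-0.46 to -0.29). Ech1, the dienoyl-CoA isomerase, stood at 194, 153 and 172 CPM, with a count ratio of -0.31 (-0.35 to -0.27). Eci2 was equally low in both aged libraries, while for Ech1 the aged EPA library lay between the others. Eci1 stood at 103, 87.9 and 86.7 CPM, and the dienoyl-CoA reductase Decr1 at 97.3, 89.0 and 85.8 CPM. Both were lower in each aged library than in young. Ech1 was no longer 1.2-fold lower when the length trend was removed, at -0.24.

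The 3 electron transfer genes were all lower in aged control than in young and all lay between the other libraries in aged EPA. Etfa, the alpha subunit of the electron transfer flavoprotein, stood at 146, 122 and 129 CPM, with a count ratio of -0.29 (-0.34 to -0.25) for aged control against young. The beta subunit Etfb stood at 115, 100.1 and 108 CPM, with -0.18 (-0.23 to -0.13). Etfdh, the oxidoreductase that hands the electrons to ubiquinone, stood at 139, 120.4 and 122 CPM, with -0.20 (-0.25 to -0.15). For all 3 the aged control library was the lowest of the 3 libraries.

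The genes placed in the peroxisomal role did not share one direction. Of the 6 compared, 3 were lower in aged control and 3 higher, with a median change of 0.00. Each gene was placed in 1 role only, with Eci2 and Ech1 among the auxiliaries and Acad11 among the dehydrogenases, and this count depends on that placing. Ehhadh, the bifunctional enzyme of the inducible peroxisomal pathway (chromosome 16, 21761287 to 21787807), stood at 8.41, 5.69 and 5.75 CPM, with a count ratio of -0.60 (-0.81 to -0.40). It rests on 483, 319 and 325 counts, which makes its interval the widest among the genes at least 1.2-fold lower. Hsd17b4, the other bifunctional enzyme, stood at 58.4, 59.2 and 59.4 CPM, and Crot, carnitine octanoyltransferase, at 39.8, 39.1 and 39.5 CPM, level in all 3 libraries. Acaa1a stood at 29.1, 27.7 and 27.7 CPM. Acox3, an oxidase of branched chains, stood at 21.8, 22.3 and 15.9 CPM, so that only the aged EPA library was low. Acaa1b was listed at 0 in young, where the floor of 3 counts equals 0.0523 CPM, and at 0.435 and 0.892 CPM in the aged libraries, from 25 and 50 counts. The assignment of these few counts is uncertain and was not tested: Acaa1a is near identical and far more abundant, and exons of Dlec1 overlap 11.4% of the exon bases of Acaa1b on the opposite strand.

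**Figure D3:**
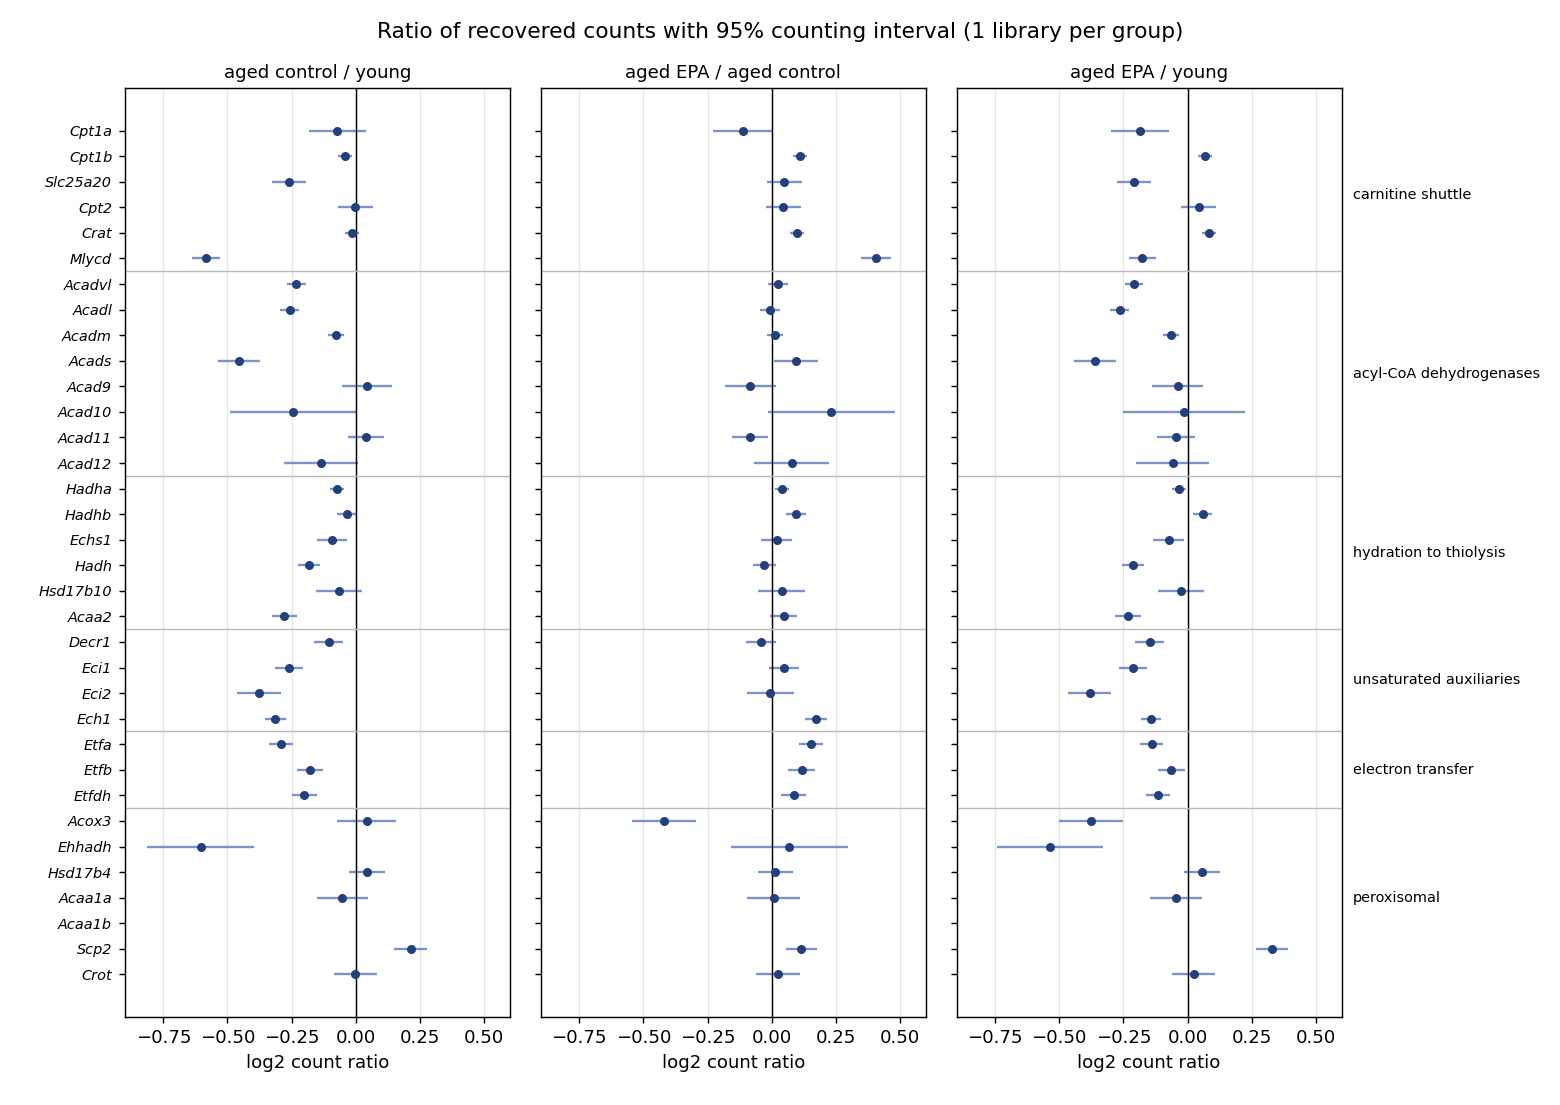
Log2 count ratio of each gene with its 95% counting interval (bars) in the 3 comparisons, grouped by role. In aged control against young most points lie left of 0 with Mlycd and Ehhadh farthest left, in aged EPA against aged control Mlycd lies farthest right and Acox3 farthest left, and Acaa1b is not plotted because the young library holds none of its reads.

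Among the 33 compared genes Scp2 had the highest change in aged control against young, at 66.8, 77.0 and 79.5 CPM and a count ratio of 0.21 (0.15 to 0.28). The difference was not present in the sum with its near copy. Scp2-ps2 stood at 22.4, 13.5 and 23.0 CPM, lowest in aged control. The sum of the pair was 89.2, 90.5 and 102 CPM. Its count ratio was 0.02 (-0.04 to 0.07) for aged control against young and 0.25 (0.19 to 0.30) for aged EPA against aged control. Summed, the pair was level between young and aged control and higher in aged EPA. For Hadhb the sum with Gm13910 was 268, 255 and 267 CPM, of which the pseudogene held 28.4%, 27.6% and 26.5%. The count ratio of that sum was -0.05 (-0.08 to -0.02) for aged control against young, near the -0.04 of Hadhb alone. How reads that match both members of a pair were assigned is not given in the sources used here.

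**Figure D4:**
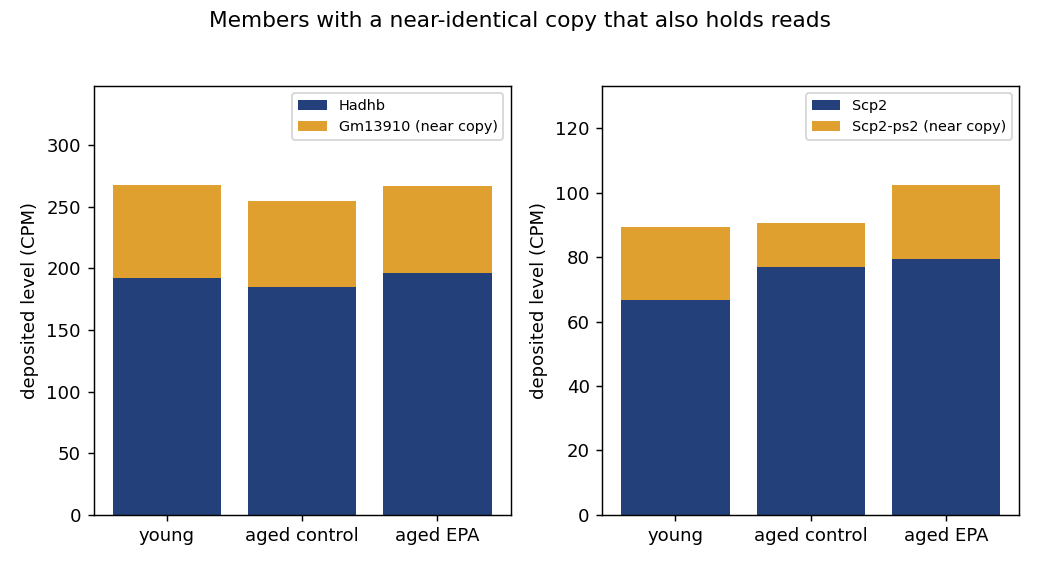
Deposited level (CPM, stacked bars from 0) of Hadhb with Gm13910 and of Scp2 with Scp2-ps2 in the 3 libraries. The pseudogene share of the Hadhb pair hardly differs, while that of the Scp2 pair is 14.9% in aged control against 25.1% in young and 22.4% in aged EPA.

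Exons of other genes overlap some of the pathway genes. Dvl2, on the opposite strand, overlaps 42.9% of the exon bases of Acadvl but stood at only 7.44, 7.32 and 7.11 CPM. Myd88 overlaps 6.57% of the exon bases of Acaa1a and stood at 7.43, 6.86 and 6.13 CPM, and whether the counting used strand is not given in the sources used here. Read-through models cover 81.4% of the exon bases of Cpt1b and 53.0% of those of Etfb. These models are not among the genes with deposited values, so no level can be given for them.

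The change in aged control against young depended on transcript length across all genes, shorter transcripts being lower in aged control. Spearman's rho between length and change was 0.29 over the 12966 genes compared and 0.45 over the 33 pathway genes, given as a description across genes that share the same 2 libraries. The pathway genes have short transcripts, with a median of 2168 bases against 3051 bases for all genes compared. With the length trend of all genes subtracted, the median change was -0.08 for the pathway against 0.00 for all genes, and 25 of 33 were lower, against 49.4% of all genes. What sets the length trend was not tested.

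**Figure D5:**
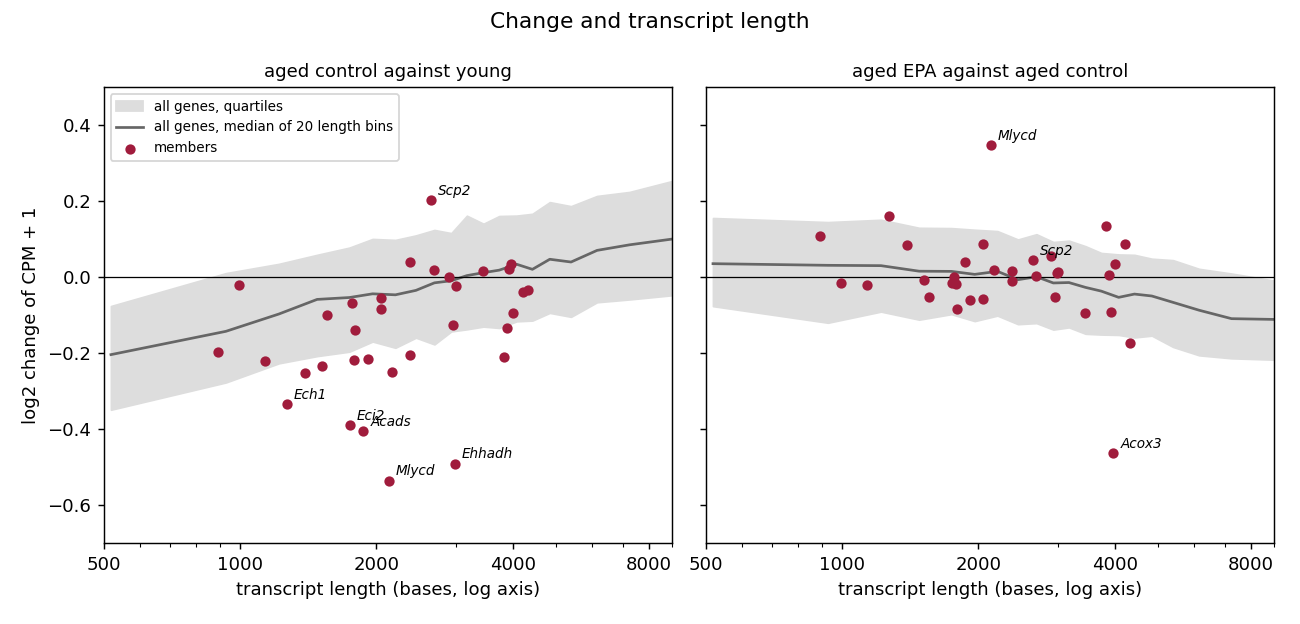
Change of log2(CPM + 1) against transcript length in bases (log axis) for the 33 genes (points), with the median and quartiles of all genes compared in 20 length bins (line and band). In aged control against young most points lie below the line among the shorter transcripts, with Mlycd, Ehhadh, Acads, Eci2 and Ech1 lowest, and in aged EPA against aged control most lie near the line apart from Mlycd and Acox3.

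Setting aged EPA against aged control shows how the pathway stood with and without EPA in the diet of old mice. It shares the aged control library with the comparison above, so a value particular to that library enters both with opposite sign. In aged EPA 18 of the 33 genes were higher than in aged control and 15 were lower, where 44.2% of all genes compared were higher and 55.8% lower. The split depended on scaling and on transcript length. Shorter transcripts were higher in aged EPA, with Spearman's rho at -0.22 over all genes compared. With the length trend removed 17 of the 33 genes were higher and 16 lower, where 49.3% of all genes were lower. Relative to CPM over the library's own total, deposited CPM differ by -2.98% to -0.12% in aged EPA and by -0.11% to 2.84% in aged control. By recovered counts over the own totals 25 were higher and 8 lower, while 47.0% of all genes were lower. By either the median of ratios or the trimmed mean of log ratios (TMM) 24 were higher and 9 lower. Of all genes, 50.1% and 49.7% were lower by these 2 scalings. The median change was 0.00 by deposited CPM, against -0.03 for all genes compared, and 0.04 by recovered counts, against 0.01. It was 0.03 by the median of ratios and 0.03 by TMM, against -0.0004 and 0.0011 for all genes. A median of this size is no larger than the scaling itself moves it. All genes moved along with the pathway genes, whose median lay slightly above theirs under each of these scalings.

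Only 1 gene was at least 1.2-fold higher in aged EPA than in aged control, Mlycd, against 8.08% of all genes compared, and 1 was at least 1.2-fold lower, Acox3, against 11.0%. None was 2-fold higher or lower, against 0.694% and 0.640%. Mlycd at 97.8 CPM in aged EPA lay between aged control at 76.6 and young at 112, with a count ratio of 0.41 (0.35 to 0.46) to aged control. Acox3 at 15.9 CPM lay below both other libraries, with a count ratio of -0.42 (-0.54 to -0.29) to aged control and -0.38 (-0.50 to -0.25) to young. The next highest after Mlycd were Ech1 with a count ratio of 0.17 (0.13 to 0.21), Etfa with 0.15 (0.11 to 0.20), Etfb with 0.12 (0.06 to 0.17) and Cpt1b with 0.11 (0.08 to 0.14), leaving out Acad10 and Scp2. The Acad10 ratio was 0.23 (-0.02 to 0.48), from 255 and 291 counts, and that of Scp2 was 0.12 (0.06 to 0.18) before its copy was added. All 3 electron transfer genes were higher in aged EPA, with a median change of 0.09, also under every scaling tried. Of the 8 dehydrogenases 4 were higher and 4 lower, with a median change of -0.03. Acadl, Acads and Eci2, low in aged control, stood about as low in aged EPA.

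Against young, the aged EPA library showed 27 of the 33 genes lower and 6 higher, where 56.7% of all genes compared were lower and 43.3% higher. The median change was -0.15 by deposited CPM, against -0.04 for all genes compared, and -0.073 by recovered counts, against -0.01. The summed level was 3673 CPM, -7.13% from young. At least 1.2-fold lower were 5 genes, Ehhadh, Acox3, Eci2, Acads and Acadl, against 16.2% of all genes compared. None was at least 1.2-fold higher by deposited CPM (10.3% of all genes), and Scp2, the highest, was so under other scalings. None was 2-fold lower or higher (0.802% in each direction). Acadl passed 1.2-fold under 7 of 11 alternatives. Mlycd and Ech1, at least 1.2-fold lower in aged control, were -0.19 and -0.17 from young in aged EPA.

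Genes that feed or surround the pathway were taken from lists of their own. Of 15 genes that deliver fatty acyl-CoA, 10 were lower in aged control than in young, where 52.4% of all genes compared were lower. Their median was -0.21. At least 1.2-fold lower were 6 of the 15 (14.6% of all genes compared), and 2 were at least 1.2-fold higher (12.6%). The heart and muscle fatty acid binding protein Fabp3 stood at 561, 373 and 415 CPM, and the fatty acid translocase Cd36 at 436, 336 and 323 CPM. Fabp4 stood at 260, 173 and 178 CPM. In the other direction Acsl3 stood at 23.9, 31.4 and 31.5 CPM and Acsl5 at 7.35, 9.05 and 8.26 CPM. Acsl1, the main long-chain acyl-CoA synthetase of muscle, stood at 377, 327 and 126 CPM, so that aged EPA alone was far lower, with a change of -1.36 to aged control. Of 11 genes of acyl-CoA hydrolysis, uncoupling and malonyl-CoA synthesis, 7 were lower in aged control, with a median of -0.34. Among them the mitochondrial thioesterase Acot2 stood at 44.1, 25.1 and 28.8 CPM and the uncoupling protein Ucp3 at 323, 219 and 241 CPM, where both aged libraries lay below young. Among the higher ones Acaca stood at 18.2, 21.8 and 17.3 CPM and Acacb at 291, 312 and 299 CPM. Of 14 other compared peroxisomal oxidation genes 9 were lower (median -0.04), and of 15 peroxisome assembly genes 10 were lower (median -0.04). The acyl-CoA thioesterase Acot8 stood at 5.48, 3.14 and 5.71 CPM and Nudt7, a peroxisomal CoA hydrolase, at 19.9, 13.1 and 15.1 CPM.

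Related oxidation pathways differed from this pattern. Of 13 genes of branched-chain and odd-chain acyl-CoA oxidation, 8 were higher in aged control, against 47.5% of all genes compared. Their median was 0.01. Acadsb, the dehydrogenase of short branched chains, stood at 44.0, 99.0 and 44.2 CPM and Ivd, isovaleryl-CoA dehydrogenase, at 59.0, 84.3 and 92.3 CPM. Among the lower ones Hibch stood at 35.0, 29.8 and 31.0 CPM and Mcee at 20.2, 17.7 and 16.5 CPM. In ketone body metabolism Oxct1, the enzyme that lets muscle use ketone bodies, stood at 150.0, 342 and 168 CPM. For Acadsb and Oxct1 the aged control library alone stood apart. Among 14 regulators, Ppara, the nuclear receptor that drives many of these genes, stood at 6.64, 11.1 and 7.00 CPM, the corepressor Nrip1 at 47.9, 70.5 and 55.8 CPM, and the coactivator Ppargc1a at 76.4, 85.1 and 61.2 CPM. These 3 were highest in aged control. Of the 14 regulators 8 were higher there than in young and 6 lower, against 47.5% and 52.4% of all genes compared. Their median was 0.06, and with the length trend removed 0.02, against 0.00 for all genes. Among the lower ones the transcription factor Foxo1 stood at 84.0, 67.1 and 63.4 CPM, and the sirtuins Sirt3 at 14.6, 12.7 and 10.8 CPM and Sirt5 at 8.43, 7.21 and 8.47 CPM.

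The summed levels of several marker lists of tissue make-up differed between the libraries. Of 15 genes of general mitochondrial content 11 were lower in aged control than in young. Their median was -0.08 and their summed level 3609, 3705 and 3602 CPM. Of all genes compared 52.4% were lower and 47.5% higher, and these shares belong beside every count in this paragraph. The lists are short, and whether their counts differ from these shares was not tested. All 8 slow fibre markers were highest in aged control and lowest in young, with summed levels of 682, 1086 and 899 CPM. Adipocyte markers (8 of 9 lower in aged control) summed to 1548, 1223 and 1246 CPM. Most of that sum came from Lpl (797, 690 and 628 CPM), Pnpla2 (324, 253 and 297 CPM) and Fabp4, which is also in the fatty acyl-CoA list. Adipoq stood at 16.8, 15.9 and 18.4 CPM and Lep, the only higher one, at 2.46, 5.37 and 5.62 CPM, so the sum is no measure of fat content. Endothelial markers (6 of 7 lower) summed to 413, 334 and 324 CPM, and red cell markers (5 of 5 lower) to 1508, 561 and 565 CPM. Skeletal muscle fibre markers (8 of 10 higher) summed to 104960, 120720 and 119540 CPM, macrophage markers (5 of 7 higher) to 179, 196 and 202 CPM, and smooth muscle markers (4 of 4 higher) to 239.6, 252 and 226 CPM. Fibroblast markers (3 higher and 3 lower) summed to 1340, 1263 and 1171 CPM and Schwann cell markers (3 of 4 lower) to 129, 109 and 120.0 CPM. No marker of these lists was at 0. Of the counts, 22.7%, 21.2% and 19.6% came from genes of the mitochondrial genome. The part of these differences in the levels of the fatty acid oxidation genes was not tested.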

How the data were processed

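Total RNA of gastrocnemius and plantaris muscle was pooled within each group and sequenced, per the labels' protocols. The tools were StringTie 1.3.4d, HISAT2 2.1.0 and R 3.5.0, and the build was GRCm38 (mm10), per the submitters' processing notes. The deposited values are CPM per gene, as calculated by the authors. Each value gave back a whole count when multiplied by the right one of 5 divisors, which differ from gene to gene, and no product lay farther than 3.0268e-09 from a whole number. The divisors shift the log2 change of a gene by at most 0.08. The recovery was checked on simulated data.

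The 63 rows that share a symbol with another row were summed. Genes averaging 1 CPM or more were compared by log2(CPM + 1) in Python 3.11.15 (pandas 2.3.3, scipy 1.17.1), and near copies were found with BLAST 2.17.0. With 1 library per group no test was made, and differences are described by size (1.2-fold and 2-fold), beside the share of all genes compared. Counting intervals are exact Clopper-Pearson intervals at 95%. Transcript lengths are those of GENCODE M21, and 42170 of 42258 genes were matched to it. All 34 pathway genes are named. Of the other lists a few genes are named, mostly among those with the largest changes, and for some lists in 1 direction only. The genes and lists were chosen with earlier results of these data known. Alternatives were pseudocounts of 0.1 and 5 CPM, no filter and an average of 5 CPM or more, scaling by TMM, by the median of ratios, without mitochondrially encoded and the 20 most abundant genes, or by recovered counts over the own total, removal of the length trend (lowess, fraction 0.3), a threshold of 1.5-fold instead of 1.2-fold, and the top row alone where a symbol was repeated. The sum of Hadhb and Scp2 with their copies, and the background of genes averaging 20 CPM or more, were added after seeing the data.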

Additional observations from a re-analysis of the deposited data

How the results depend on the processing

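No paired analysis was possible because each group is 1 library, and for the same reason no library could be left out. In aged control against young the number of genes lower stayed between 25 and 28 under the alternatives, and 25 of the genes were lower and 5 higher under each. At 1.5-fold in place of 1.2-fold, 0 genes passed as lower in each comparison and 0 as higher in aged EPA against aged control. Without the filter on low values Acaa1b was added as at least 1.2-fold higher, which made 1 such gene in aged control against young, 2 in aged EPA against aged control and 1 in aged EPA against young. In aged EPA against aged control 9 genes were lower by the median of ratios, 9 by TMM and 8 by recovered counts, in place of 15. In aged EPA against young 1 gene, Scp2, was at least 1.2-fold higher by the median of ratios, TMM, recovered counts and with the length trend removed, and the median was -0.073 by recovered counts. Of 1086 values of single genes under alternatives, 63 moved by more than the distance from the ratio to its 95% counting bound. The sign of 24 of 33 genes held under all alternatives in aged EPA against aged control and of 29 of 33 in aged EPA against young. Depth limits Acaa1b, Acad10 and Ehhadh most.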
